A study of Mus musculus with 31 samples.

Results

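Long-term hematopoietic stem cells (HSC) recovering from the cytotoxic drug 5-fluorouracil (5-FU) were compared between mice that had first been given β-glucan and mice that had been given PBS. The comparison uses 8 of the 31 RNA-seq libraries of the study, 4 from each arm, chosen by their labels alone, and covers the 15705 of 45706 listed genes that passed a filter on low counts. All mice were C57BL/6 and 10 weeks old. The control arm received PBS and the other arm 1 mg of β-glucan into the peritoneum. Both arms then received 150 mg/kg of 5-FU on day 7 and were sampled 14 days later, so a difference here is between 2 sets of 5-FU-treated mice and no library shows the effect of 5-FU itself. HSC of PBS and β-glucan mice without 5-FU were collected 7 days (4 and 3 libraries) and 28 days (4 and 4 libraries) after injection. The labels do not say whether the replicates of an arm came from separate mice, so each p-value measures only the spread between these libraries, which may be technical.

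β-glucan is a polysaccharide of fungal cell walls. It is recognised by the receptor dectin-1 (Clec7a) and is used to induce trained immunity, a lasting change in the response of innate immune cells and their progenitors. 5-FU blocks thymidylate synthase and kills dividing cells, so that marrow is depleted and then rebuilt from stem cells that were quiescent. HSC reside beside stromal cells that make CXCL12 and stem cell factor, and their progeny include the eosinophils, which store cationic proteins in granules.

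Library totals ran from 23116542 to 31488538 counts, with a median of 27461674, and 22611 to 23388 genes had a count. Values are given as CPM, a gene's counts relative to the scaled total of its library. Markers of HSC were present: mean levels in the PBS and β-glucan arms were 239 and 256 CPM for Kit, 39.4 and 39.2 CPM for Ly6a (the Sca-1 antigen), 40.3 and 40 CPM for Hlf, 16.7 and 16.7 CPM for Mecom and 9.38 and 8.84 CPM for Procr (EPCR). Transcripts of mature cells were far more abundant. The 19 mature neutrophil markers took 16.5 to 22.1% of the counts in PBS libraries and 17.6 to 20.4% in β-glucan libraries, and the 4 haemoglobin genes took 12.2 to 15.9% and 9.07 to 12.1%, against 0.197 to 0.226% and 0.197 to 0.23% for the 32 LT-HSC markers. The labelled cell type is therefore present by its markers, and the libraries also carry RNA typical of granulocytes and red cells. PBS replicates 3 and 4 stood apart from their arm. The mean correlation of replicate 3 in log2 CPM was 0.9798 with the other PBS libraries and 0.9818 with the β-glucan libraries, and on the principal component that took the largest share of the variance (22.2%) it lay at 6.73, between the other PBS libraries and the β-glucan libraries (11.9 to 18.6). Replicate 4 lay at the far end of that component, at -40.8 (the other PBS libraries at -18.5 and -13.4), and had the lowest mean correlation with its own arm of the 8 libraries (0.9788).

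Few genes separated the arms beyond the spread between libraries. 7 genes, 0.0446% of those tested, had an adjusted p under 0.05 in edgeR's quasi-likelihood test and are termed called below. Of these, 6 were higher after β-glucan (0.0382%) and 1 was lower (0.00637%). The higher genes encode eosinophil granule proteins (Ear1, Epx, Ear6), proteins made by stromal cells (Bgn, Chrdl1) and a glucocorticoid-induced regulator (Tsc22d3), and the lower gene was the antibody variable segment Ighv1-49. Of the 7, 3 differed by more than 2-fold. Before adjustment, 652 genes were higher (4.15%) and 532 lower (3.39%) at p under 0.05, together 7.54%. Every β-glucan library lay above every PBS library for 379 genes (2.41%) and below for 345 (2.2%), together 4.61%. The count of called genes depended on single libraries: it was 61 without PBS replicate 3, 14 without β-glucan replicate 4, 5 without PBS replicate 4, 4 without PBS replicate 1 or β-glucan replicate 3, and 2 without PBS replicate 2, β-glucan replicate 1 or β-glucan replicate 2. Another 9 alternatives kept all 8 libraries. DESeq2's size factors called 6 genes, and upper quartile scaling and TMM without erythroid and neutrophil genes called 7 each. A fit with the replicate numbers as blocks called 16. The other 5 also called more genes. No filter gave 110, a minimum of 5 CPM in 4 libraries 16 and DESeq2's Wald test 147, among them all 7. Limma voom gave 42 and edgeR fitted on all 8 groups of the study 94. Where a gene named below missed the threshold in the edgeR fit of the 2 arms and passed it in some of these 5, the number is given. The scalings and the replicate block are left out of that number. Each of the 5 called more genes than the edgeR fit of the 2 arms, so a call by all 5 does not stand for all 9.

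**Figure D1:**
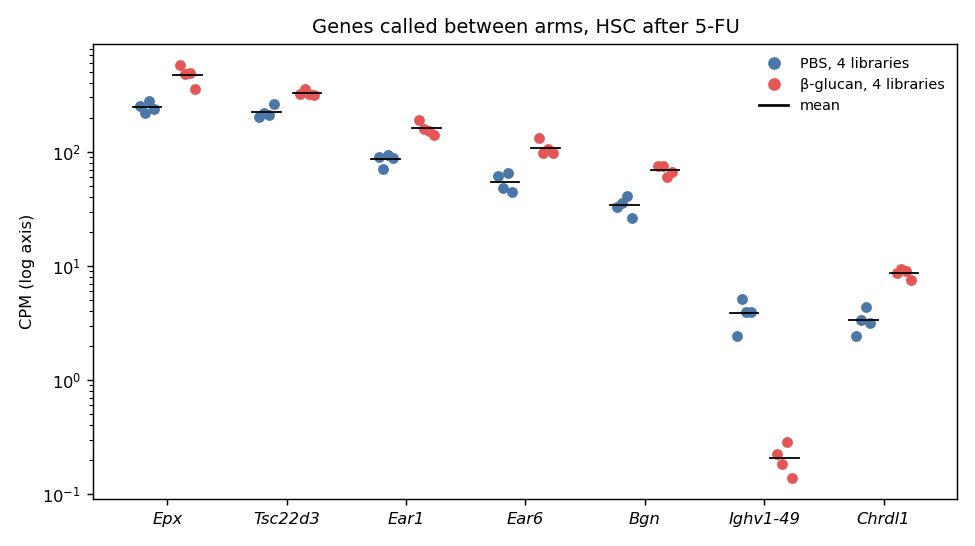
CPM (log axis) of the 7 genes called between the arms, ordered by their level in PBS libraries; each point is a library and each bar the mean of 4. The arms do not overlap for any of the 7 genes, and Ighv1-49 is the only gene of the 7 with lower points after β-glucan.

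3 genes of eosinophil granules rose in the β-glucan arm. Epx, which encodes eosinophil peroxidase (chromosome 11, 87864000 to 87875536, minus strand, mm10), measured 252, 218, 281 and 236 CPM in the PBS libraries and 582, 479.7, 489 and 356 CPM in the β-glucan libraries. Ear1, an eosinophil-associated ribonuclease (chromosome 14, 43818765 to 43875517, minus strand), measured 91.1, 70.8, 93.5 and 88 CPM against 189, 159.5, 154 and 139.6 CPM. Ear6, of the same ribonuclease family (chromosome 14, 51853699 to 51854643, plus strand), measured 61.9, 48.3, 65.4 and 44.4 CPM against 133, 98.1, 105 and 97.9 CPM. In each of the 3 genes the lowest β-glucan library lay above the highest PBS library. On the log2 scale Epx rose by 0.95 ± 0.13 (SE; adjusted p = 0.027, edgeR), Ear6 by 0.98 ± 0.13 (adjusted p = 0.027) and Ear1 by 0.90 ± 0.10 (adjusted p = 0.0136).

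The other granule genes missed the threshold in the edgeR fit of the 2 arms, and the 5 alternatives called most of them. Prg2, the major basic protein of the granule core, was the most abundant of them, at 1721, 1358, 2176 and 1544 CPM in PBS libraries and 3712, 3089, 3138 and 2615 CPM in β-glucan libraries, a log2 difference of 0.88 ± 0.14 (adjusted p = 0.0581, edgeR). Prg3, its homolog, differed by 0.97 ± 0.16 on the log2 scale (adjusted p = 0.0581, edgeR) and Alox15, the lipoxygenase of eosinophils, by 1.08 ± 0.17 (adjusted p = 0.0581, edgeR). The arms did not overlap for Prg2, Prg3 or Alox15. All 5 alternatives called each of the 3, which is 6 of all 9 with the replicate block. Ear2 was at 55.2 ± 4.93 CPM (SD, n = 4) in the PBS arm and 81.9 ± 12.1 CPM in the β-glucan arm, a log2 difference of 0.57 ± 0.10 (adjusted p = 0.0781, edgeR), called by 4 of the 5. The Ear genes are near copies: 57.4% of the stretches of 50 bases in Ear1 transcripts and 41.5% in Ear2 transcripts also occur in other Ear genes or pseudogenes, against 0.954% in Ear6 and 0% in Epx, Prg2, Prg3 and Alox15, so the values of Ear1 and Ear2 are uncertain as values of single genes.

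The promoters of the 3 called granule genes are shown because their transcripts differed in the same direction. Each is 300 bases long and spans the RefSeq start (GRCm38.p6), 5′ to 3′ on the gene's strand. Capitals mark matches to GATAA, a core site of GATA factors, and to TTNNGCAA, a core site of C/EBP factors, on either strand (TTATC is GATAA read from the other strand).
Epx, chr11:87875487-87875786, minus strand: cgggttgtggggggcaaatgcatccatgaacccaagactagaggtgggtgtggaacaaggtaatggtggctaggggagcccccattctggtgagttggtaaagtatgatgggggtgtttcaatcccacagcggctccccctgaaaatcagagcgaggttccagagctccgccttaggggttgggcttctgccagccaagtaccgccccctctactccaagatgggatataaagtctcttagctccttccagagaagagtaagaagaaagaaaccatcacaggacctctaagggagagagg
Ear1, chr14:43819590-43819889, minus strand: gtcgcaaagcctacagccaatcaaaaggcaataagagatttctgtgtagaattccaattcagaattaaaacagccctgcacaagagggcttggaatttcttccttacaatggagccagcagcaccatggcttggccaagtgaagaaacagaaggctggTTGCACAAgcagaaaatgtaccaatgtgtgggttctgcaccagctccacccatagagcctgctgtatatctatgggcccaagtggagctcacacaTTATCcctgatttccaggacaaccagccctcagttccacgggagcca
Ear6, chr14:51853518-51853817, plus strand: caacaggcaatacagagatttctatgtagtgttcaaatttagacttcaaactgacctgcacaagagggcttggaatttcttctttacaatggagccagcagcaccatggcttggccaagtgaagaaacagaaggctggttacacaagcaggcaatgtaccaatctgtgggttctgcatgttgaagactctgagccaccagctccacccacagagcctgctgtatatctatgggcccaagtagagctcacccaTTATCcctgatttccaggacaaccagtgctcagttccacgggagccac
Ear1 held 1 match to GATAA and 1 to TTNNGCAA, Ear6 held 1 match to GATAA, and Epx held neither in this window. Matches of the motifs did not overlap. Over all 32851 promoters of the same length in the table, 25.4% held GATAA and 10.8% held TTNNGCAA, so single matches of this kind are common. In pairwise alignments, the Ear1 and Ear6 promoters were identical at 80.7% of aligned positions and the Ear1 and Epx promoters at 46.4%.

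Of the 22 mast cell, basophil and eosinophil markers, 18 passed the filter. 3 were called higher and none lower (0.0382% of all genes were called higher), and 13 were higher at an unadjusted p under 0.05 (4.15% of all genes). Their median log2 difference was 0.58, beside -0.003 for all genes tested. The basophil proteases Mcpt8 and Prss34 were higher by 0.61 ± 0.14 and 0.60 ± 0.15 (adjusted p = 0.18 and 0.222, edgeR), without overlap of the arms, and were called by 3 and 2 of the 5 alternatives. Cpa3, the mast cell carboxypeptidase, differed by 0.35 ± 0.12 and Fcer1a, the alpha chain of the IgE receptor, by 0.41 ± 0.13, and both overlapped. Surface receptors of mature eosinophils differed in sign: Ccr3 differed by -0.17 ± 0.17, Siglecf by -0.35 ± 0.25 and Il5ra, which was low (0.498 ± 0.202 and 1.04 ± 0.4 CPM), by 1.06 ± 0.40. The connective tissue mast cell genes Mcpt4, Cma1, Tpsb2 and Tpsab1 failed the filter, with no arm above a mean of 0.221 CPM, and Tpsab1 was at 0 in both arms.

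As a share of all counts, the 22 markers took 0.287, 0.234, 0.326 and 0.25% in the PBS libraries and 0.56, 0.474, 0.519 and 0.41% in the β-glucan libraries, 1.79 times as much on average. Prg2 alone made up 60.7% of the list's level in the PBS arm and 65.3% in the β-glucan arm. In a bulk library, more cells of a type and more RNA per cell cannot be told apart. Mature neutrophil markers took 18.8 ± 2.33% (SD, n = 4) of PBS counts and 18.8 ± 1.16% of β-glucan counts, with overlap. The share of stromal markers, given below, was also higher in every β-glucan library, and its part in the result was not tested. Without PBS replicate 3, which had the highest share of its arm, 6 of the 18 tested members were called higher (0.368% of all genes in that fit), and without β-glucan replicate 2 none was, with Ear1 then at an adjusted p of 0.0594 (edgeR). Without PBS replicate 1, 2 or 4, or β-glucan replicate 1, 2 or 3, neither Epx nor Ear6 was called (adjusted p = 0.0529 to 0.128).

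A pair of genes that stromal cells express rose in the β-glucan arm. Bgn, the matrix proteoglycan biglycan (chromosome X, 73483602 to 73495933, plus strand), measured 32.8, 35.8, 41.2 and 26.3 CPM in PBS libraries and 74.8, 75.2, 60.5 and 66.9 CPM in β-glucan libraries, and rose by 1.03 ± 0.12 on the log2 scale (adjusted p = 0.0136, edgeR). Chrdl1, a secreted antagonist of bone morphogenetic proteins (chromosome X, 143285674 to 143394262, minus strand), measured 2.42, 3.38, 4.4 and 3.2 CPM against 8.75, 9.47, 9.01 and 7.52 CPM, and rose by 1.37 ± 0.18 (adjusted p = 0.0249, edgeR). For both genes the gap between the arms was wider than the range within either arm.

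The niche factors missed the threshold in the edgeR fit of the 2 arms, while several alternatives called them. Cxcl12, the chemokine that retains HSC in marrow, measured 60.9, 83.9, 137 and 62.8 CPM in PBS libraries and 237, 199, 197 and 201 CPM in β-glucan libraries, a log2 difference of 1.27 ± 0.21 (adjusted p = 0.0645, edgeR). PBS replicate 3 was the high PBS library here, the arms did not overlap, and all 5 alternatives called the gene (5 of all 9). Kitl, which encodes stem cell factor, was at 8.79 ± 3.39 CPM and 19.4 ± 2.52 CPM (SD, n = 4; adjusted p = 0.0991, edgeR), and Lepr, the leptin receptor that marks perivascular stromal cells, at 9.68 ± 2.88 and 21.2 ± 5.51 CPM (adjusted p = 0.0958, edgeR). Each was called by 4 of the 5 alternatives. Ibsp, the bone sialoprotein of osteoblasts, differed by 1.13 ± 0.24 on the log2 scale and Pdgfra, a mesenchymal receptor, by 1.57 ± 0.39 (adjusted p = 0.138 and 0.226, edgeR), called by 4 and 2 of the 5. Among the endothelial members, Pecam1 was at 39.3 ± 1.37 and 38.5 ± 3.28 CPM, a log2 difference of -0.03 ± 0.07, and Cdh5 (VE-cadherin) differed by 0.47 ± 0.33 with overlap. Stab2 differed by 0.99 ± 0.26, Emcn by 0.35 ± 0.19 and Kdr by 0.31 ± 0.36 (adjusted p = 0.263, 0.728 and 0.92, edgeR). For Stab2, Emcn and Kdr the calls of the alternatives are not given.

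Of the 24 stromal and endothelial markers, 23 passed the filter (Ebf3 only through its level in the β-glucan arm, while Bglap, at 0.334 and 1.17 CPM, did not pass). 1 was called higher and none lower (0.0382% of all genes were called higher), and the median log2 difference over the 23 was 0.89. Without Ebf3, 16 of 22 were higher at an unadjusted p under 0.05 (4.15% of all genes), with a median of 0.85. None of the 24 was at 0 in both arms. Together they took 0.0372, 0.0449, 0.0609 and 0.0331% of the counts in PBS libraries and 0.0832, 0.0826, 0.0778 and 0.0727% in β-glucan libraries. Without PBS replicate 3, 9 members were called higher (0.368% of all genes in that fit), among them Cxcl12 (log2 difference 1.59, adjusted p = 0.000822, edgeR), Kitl (1.41, adjusted p = 0.00571) and Lepr (1.35, adjusted p = 0.0184). Bgn was not called without PBS replicate 1 or 2 or β-glucan replicate 1 or 2 (adjusted p = 0.0527 to 0.0768), nor Chrdl1 without PBS replicate 2 or 4 or β-glucan replicate 1, 2 or 3 (adjusted p = 0.0644 to 0.118).

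**Figure D2:**
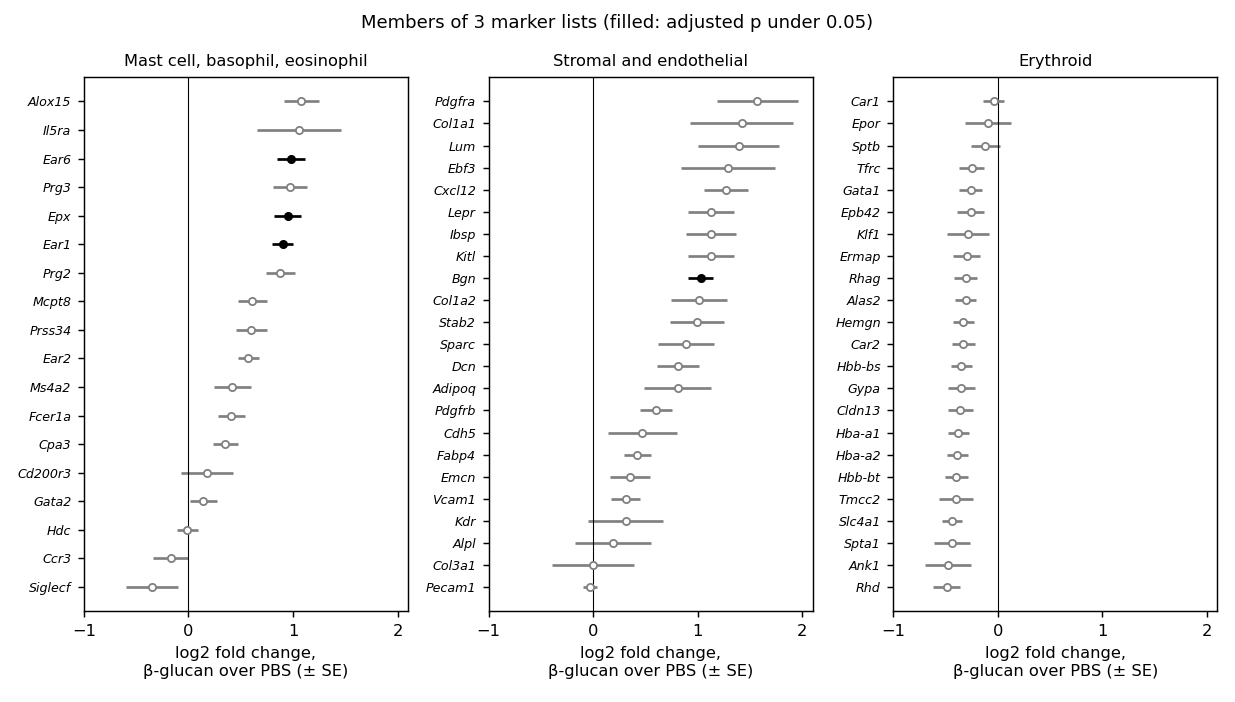
Log2 difference, β-glucan over PBS, with its SE for each tested member of 3 marker lists; filled points had an adjusted p under 0.05 (edgeR). The erythroid members all lie below 0, while in the other lists most lie above 0 and the filled points are Ear1, Ear6, Epx and Bgn.

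Tsc22d3 (chromosome X, 140539528 to 140600659, minus strand), which encodes the glucocorticoid-induced leucine zipper, was also higher after β-glucan. It measured 202, 219, 209 and 263 CPM in PBS libraries and 321, 353, 322 and 318 CPM in β-glucan libraries, and rose by 0.56 ± 0.08 on the log2 scale (adjusted p = 0.0482, edgeR). The arms did not overlap. Of 14 glucocorticoid-induced genes, all of which passed the filter, Tsc22d3 was the only called member (0.0446% of all genes were called). Their median log2 difference was 0.10 (0.20 without PBS replicate 4 and 0.02 with the CPM minimum). Of the 14, 10 differences were positive and 4 negative (Mt2 -0.34 ± 0.20, Sgk1 -0.12 ± 0.15, Mt1 -0.09 ± 0.12 and Pik3ip1 -0.06 ± 0.15). For 4, every β-glucan library lay above every PBS library (2.41% of all genes), and for none below (2.2%). The clock gene Per1 (1.7 ± 0.719 and 3.19 ± 0.449 CPM), the transcription factor Klf9 (5.29 ± 0.406 and 7.58 ± 0.665 CPM) and the mTOR inhibitor Ddit4 had no overlap between the arms, with adjusted p = 0.433, 0.217 and 0.706 (edgeR), and DESeq2 called Klf9 (adjusted p = 0.0306). Fkbp5, a widely used marker of glucocorticoid exposure, was at 10.2 ± 0.508 and 11 ± 1.07 CPM with overlap, and Nr3c1, the receptor, differed by 0.10 ± 0.07. The call of Tsc22d3 was lost without any library other than PBS replicate 3 or 4 (adjusted p = 0.0802 to 0.178) and with DESeq2's size factors (adjusted p = 0.0572).

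The called gene that was lower was Ighv1-49, a variable segment of the antibody heavy chain (chromosome 12, 115055223 to 115055656, minus strand). It had 66 to 156 counts in the PBS libraries and 4 to 7 in the β-glucan libraries, or 2.46, 5.17, 3.92 and 3.97 CPM against 0.223, 0.182, 0.287 and 0.138 CPM. It fell by 4.21 ± 0.31 on the log2 scale (adjusted p = 0.000283, edgeR) and was called whichever library was left out. In a fit with all 8 groups of the study it was not called (adjusted p = 0.0556). The 18 B cell markers held no called gene and had a median log2 difference of 0.17.

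Red cell genes gave no call in the edgeR fit of the 2 arms, and their differences had the same sign. All 23 erythroid genes had a negative log2 difference, with a median of -0.33. None was called, 16 were lower at an unadjusted p under 0.05 (3.39% of all genes) and 5 did not overlap (2.2%). Slc4a1, the band 3 anion exchanger, measured 384, 402, 343 and 298 CPM in PBS libraries and 292, 221, 274 and 264 CPM in β-glucan libraries, a log2 difference of -0.44 ± 0.10 (adjusted p = 0.189, edgeR). The alpha globin Hba-a2 differed by -0.39 ± 0.10, Hba-a1 by -0.38 ± 0.10, the beta globins Hbb-bt by -0.40 ± 0.11 and Hbb-bs by -0.35 ± 0.10. DESeq2's Wald test called these 4 globins and Slc4a1 and Rhd lower (adjusted p = 0.00959 to 0.049), and the fit without a filter called Slc4a1 and Rhd. These copies of each globin share much of their sequence and are uncertain as single genes. Rhd, the Rh blood group protein, differed by -0.49 ± 0.13, Alas2, the erythroid enzyme of haem synthesis, by -0.31 ± 0.10 and Gata1, the erythroid master regulator, by -0.26 ± 0.11, each with overlap. The 4 haemoglobin genes took 15.9, 14.2, 13 and 12.2% of PBS counts and 11.8, 9.07, 11 and 12.1% of β-glucan counts. The highest β-glucan library thus lay just under the lowest PBS library.

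**Figure D3:**
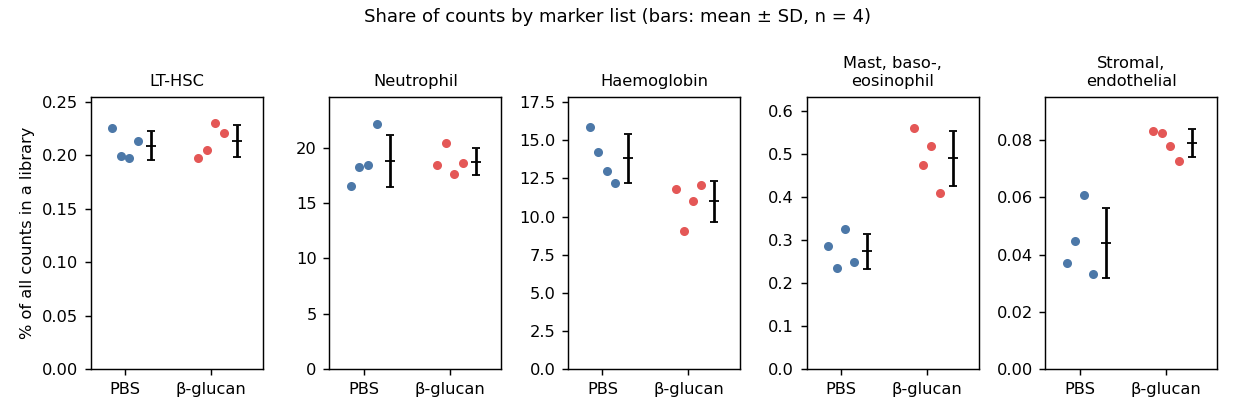
Share of all counts of a library (%) taken by 5 marker lists; points are libraries and bars the mean ± SD of 4. The LT-HSC and neutrophil shares overlap between arms, the haemoglobin share is lower after β-glucan (11 ± 1.37% against 13.8 ± 1.6%), and the mast cell, basophil and eosinophil share and the stromal share are higher without overlap.

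Lymphocyte and antigen presentation genes held no called gene in the edgeR fit of the 2 arms. Trac, the constant region of the T cell receptor alpha chain, was at 4.47, 4.78, 4.84 and 5.01 CPM in PBS libraries and 9.9, 8.63, 8.19 and 7.21 CPM in β-glucan libraries (log2 difference 0.83 ± 0.13, adjusted p = 0.0581, edgeR). Il2rb, the beta chain of the IL-2 and IL-15 receptors, was at 6.67 ± 0.64 and 12.4 ± 2.36 CPM (0.90 ± 0.15, adjusted p = 0.0645). Neither overlapped between arms, and all 5 alternatives called both (5 of all 9). Among the 23 T and NK cell markers, Zap70 passed the filter only through the β-glucan arm. Of the other 22, 8 were higher at an unadjusted p under 0.05 (4.15% of all genes) and none lower, with a median of 0.35. The T cell kinase Lck differed by 0.42 ± 0.13 and Cd3d by 0.38 ± 0.12. Of the 23, 19 differences were positive and 4 negative (Nkg7 -0.08 ± 0.12, Gzmb -0.21 ± 0.18, Klrb1c -0.09 ± 0.16 and Thy1 -0.03 ± 0.28). Nkg7 made up 81.6% of the list's level in the PBS arm and 76.7% in the β-glucan arm. The list took 0.0603 ± 0.0101% (SD, n = 4) of PBS counts and 0.0634 ± 0.00433% of β-glucan counts, with overlap. All 11 MHC class II genes had a positive difference (median 0.27, highest 0.747), and 7 were higher at an unadjusted p under 0.05 (4.15% of all genes). Those of smallest p were H2-Eb1 at 34.8 ± 4.32 and 49.3 ± 2.5 CPM (0.50 ± 0.09, adjusted p = 0.0781, edgeR) and H2-Aa at 98.1 ± 4.36 and 125 ± 12.9 CPM (0.35 ± 0.07, adjusted p = 0.145). These were called by 3 and 2 of the 5 alternatives.

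Genes induced by type I interferon had a negative median. Of 33 tested, none was called, 4 were lower (3.39% of all genes) and none higher at an unadjusted p under 0.05, and the median log2 difference was -0.13. Isg15, a ubiquitin-like modifier, measured 41.9, 54.8, 56.7 and 48.1 CPM in PBS libraries and 37.3, 31.8, 34 and 32.9 CPM in β-glucan libraries, without overlap (-0.57 ± 0.10, adjusted p = 0.0781, edgeR). All 5 alternatives called it lower (5 of all 9). Rsad2 (viperin) differed by -0.39 ± 0.10 without overlap (called by DESeq2, adjusted p = 0.049) and the exonuclease Isg20 by -0.28 ± 0.09 with overlap.

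Genes of HSC identity gave no call, and none of the 32 LT-HSC markers was called under any alternative tried. Over 32 LT-HSC markers the median log2 difference was -0.02. At an unadjusted p under 0.05, 2 were higher (4.15% of all genes) and 4 lower (3.39% of all genes). The 4 members of smallest p were the stress-induced nuclear protein Nupr1 (0.38 ± 0.10), the interferon-induced Ifitm1 (-0.54 ± 0.17), von Willebrand factor Vwf (-0.29 ± 0.09) and the sulfotransferase Sult1a1 (0.51 ± 0.17), with adjusted p = 0.273 to 0.422 (edgeR). Markers used to separate HSC from progenitors gave no call: Slamf1 (CD150) differed by -0.30 ± 0.12, Cd48 by 0.09 ± 0.06, Flt3 by 0.10 ± 0.21, Cd34 by 0.08 ± 0.09, Kit by 0.10 ± 0.07, Procr by -0.09 ± 0.24 and Ly6a by -0.01 ± 0.09. For Flt3, Procr and Ly6a the sign turned under some of the alternatives tried.

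The genes a drug against dividing cells bears on gave no call either, 14 days after it. The proliferation antigen Mki67 was at 75.5, 85.8, 53 and 46 CPM in PBS libraries and 67.4, 71, 79.3 and 52.9 CPM in β-glucan libraries, a spread within each arm far wider than the difference of the means (0.05 ± 0.18, adjusted p = 0.98, edgeR). The 39 DNA replication genes had a median log2 difference of -0.03 and the 33 mitosis genes of -0.02. Of these, 1 and 0 members had an unadjusted p under 0.05 (7.54% of all genes). Tyms, the thymidylate synthase that 5-FU blocks, was at 132 ± 9.62 and 130.1 ± 4.78 CPM. The uridine phosphorylase Upp1, which converts 5-FU to its nucleoside, was at 23.9 ± 1.99 and 18.6 ± 1.85 CPM without overlap (-0.36 ± 0.10, adjusted p = 0.273, edgeR). Over 24 p53 target genes the median was -0.03; the cell cycle inhibitor Cdkn1a (p21) differed by -0.21 ± 0.14, and Gadd45a by -0.26 ± 0.08 without overlap. None of 32 DNA repair genes was called.

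Receptors of β-glucan and of myeloid cytokines gave no call. Clec7a was at 49.1 ± 14.3 CPM in the PBS arm and 54.6 ± 3.34 CPM in the β-glucan arm with overlap. Card9, the adaptor that signals from dectin-1, measured 6.37, 6.63, 6.13 and 5.96 CPM in PBS libraries and 10.5, 8.71, 7.98 and 9.46 CPM in β-glucan libraries, without overlap (0.55 ± 0.12, adjusted p = 0.176, edgeR), and DESeq2 called it (adjusted p = 0.0101). The IL-1 receptor Il1r1 differed by 0.48 ± 0.18, Csf2rb, the shared beta chain of the GM-CSF receptor, by -0.06 ± 0.08, and Csf1r, the M-CSF receptor, by 0.18 ± 0.08, each with overlap. Cebpa, the transcription factor of granulocyte and monocyte commitment, was at 4.48 ± 0.455 and 6.47 ± 1.16 CPM without overlap (0.53 ± 0.16, adjusted p = 0.371, edgeR). Of the 31 genes that signal from dectin-1, TLR and the IL-1 receptor, 2 were higher at an unadjusted p under 0.05 (4.15% of all genes). None was lower (3.39% of all genes), and the median was 0.03. The 20 immediate early genes had a median of -0.17, with Jun at 3.9 ± 0.717 and 2.17 ± 0.692 CPM without overlap (-0.85 ± 0.25, adjusted p = 0.334, edgeR). Of the 20, 5 were lower (3.39% of all genes) and 1 higher (4.15%) at an unadjusted p under 0.05. For 2, every β-glucan library lay below every PBS library (2.2% of all genes).

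**Figure D4:**
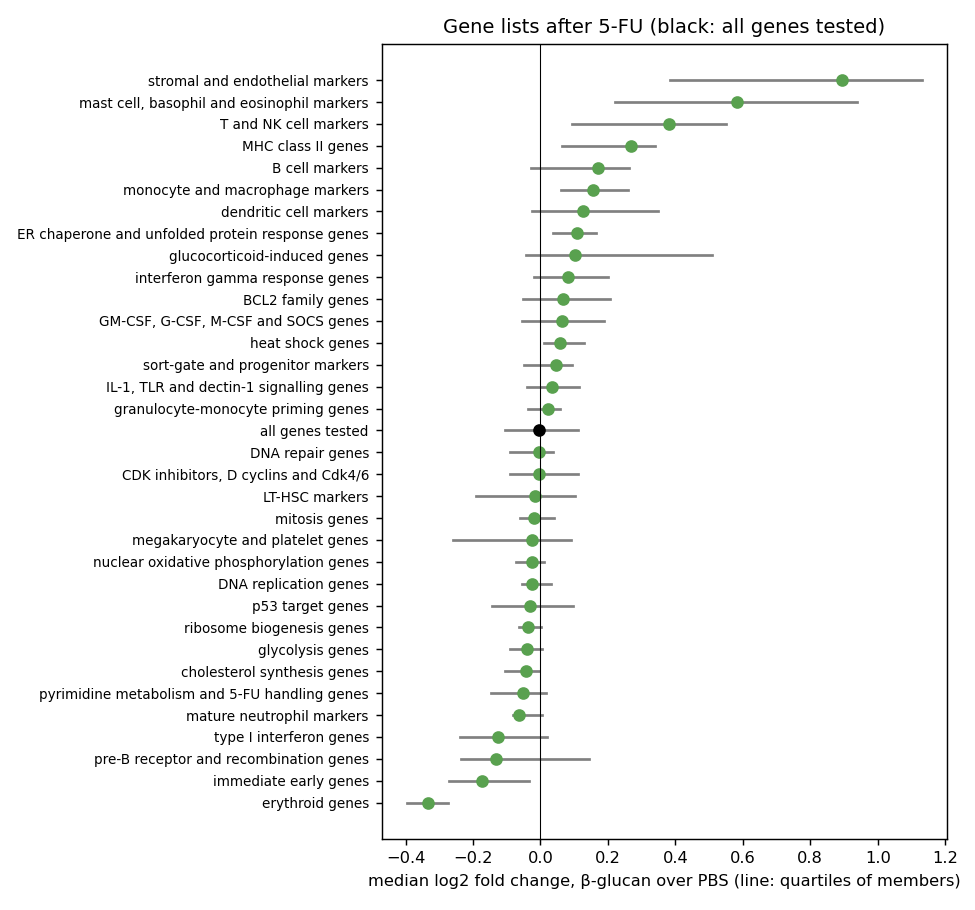
Median log2 difference, β-glucan over PBS, of the tested members of each of 33 gene lists (lines: quartiles of members) and of all genes tested (black). The stromal list (0.89) and the mast cell, basophil and eosinophil list (0.58) lie highest, the erythroid list (-0.33) lowest, and the HSC, replication and p53 lists lie within 0.05 of 0.

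The β-glucan difference after 5-FU was set against that in HSC without 5-FU by testing the difference of the differences. In their own fits, 6 of 16025 genes were called at day 28 (0.0374%) and 1102 of 16403 at day 7 (6.72%). The difference of effects was called for 18 of 16985 genes between 5-FU and day 28 (0.106%; 9 higher after 5-FU and 9 lower) and for 386 of 17676 between 5-FU and day 7 (2.18%; 167 higher and 219 lower). The 3 sets came in separate count tables and differ in both 5-FU and the day of sampling, which cannot be told apart. The count against day 28 was 6 to 19 when 1 library of the 5-FU set was left out (6 without PBS replicate 2 or β-glucan replicate 1, 7 without β-glucan replicate 3, 8 without β-glucan replicate 2, 10 without PBS replicate 4 and 11 without PBS replicate 1). Against day 7 it was 159 to 490, with the lowest counts without β-glucan replicate 3 (159), β-glucan replicate 1 (216), PBS replicate 4 (236) and PBS replicate 2 (255).

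The eosinophil ribonuclease Ear1 differed by 0.90 ± 0.10 after 5-FU, 0.05 ± 0.09 at day 28 and 0.02 ± 0.17 at day 7. The difference between 5-FU and day 28 was 0.83 ± 0.14 (adjusted p = 0.0294, edgeR), and that between 5-FU and day 7 was 0.85 ± 0.22 (adjusted p = 0.0512, and 0.0494 with DESeq2's size factors). Alox15 differed by -0.30 ± 0.10 at day 28, which made the difference between the sets 1.36 ± 0.20 (adjusted p = 0.0117, edgeR). For Ear6 it was 0.86 ± 0.16 (adjusted p = 0.05, not under the threshold) and for Epx, at 0.33 ± 0.14 on day 28, it was 0.59 ± 0.21 (adjusted p = 0.3). Against day 7 the differences of Alox15, Ear6 and Epx were 0.94 ± 0.32, 0.83 ± 0.25 and 0.86 ± 0.24. None of these was called (adjusted p = 0.136, 0.0979 and 0.0726, edgeR). The Ear1 difference against day 28 was not called without PBS replicate 2 or 4 or β-glucan replicate 1, 2 or 3 (0.74 to 0.86, adjusted p = 0.0565 to 0.0677). The 6 granule genes Epx, Ear1, Ear2, Ear6, Prg2 and Prg3, grouped after their values were seen, took 0.215 ± 0.0416% of PBS counts and 0.414 ± 0.0588% of β-glucan counts after 5-FU, against 0.449 ± 0.0309% and 0.569 ± 0.0612% at day 28 and 0.462 ± 0.0862% and 0.468 ± 0.107% (n = 3) at day 7. The PBS arm after 5-FU had the lowest mean share of the 6 groups of HSC, a difference between sets that was not tested.

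Bgn differed by 0.37 ± 0.15 at day 28 and 0.03 ± 0.11 at day 7, and the difference of effects was called against day 7 (0.96 ± 0.18, adjusted p = 0.00974, edgeR) and not against day 28 (0.64 ± 0.21, adjusted p = 0.276). Cxcl12 differed by 0.60 ± 0.13 at day 28 and -0.07 ± 0.10 at day 7, and its difference of effects was 1.31 ± 0.27 against day 7 (adjusted p = 0.0193, edgeR) and 0.66 ± 0.27 against day 28 (adjusted p = 0.387). The stromal list as a whole held 0 called differences against day 28 (0.106% of all genes) and 2 against day 7 (2.18% of all genes). Its median effect was 0.89 after 5-FU, 0.59 at day 28 and 0.03 at day 7. Tsc22d3 differed from its effect at day 28 (-0.23 ± 0.10) by 0.77 ± 0.13 (adjusted p = 0.0294, edgeR), a call lost without any library other than PBS replicate 4 or β-glucan replicate 4 (0.73 to 0.78, adjusted p = 0.0509 to 0.0986) and with DESeq2's size factors (0.75, adjusted p = 0.0564). Against its effect at day 7 (0.03 ± 0.19) the difference was 0.49 ± 0.23 and was not called (adjusted p = 0.303, edgeR).

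Among the called differences of smallest p were those of Ighv1-49 and of the lymphocyte genes Il2rb and Trac. Ighv1-49, which did not pass the filter in the day 28 fit, gave -5.89 ± 0.67 for 5-FU minus day 28 (adjusted p = 0.000861, edgeR). At day 7 Ighv1-49 was at 3.93 ± 1.26, not called (adjusted p = 0.0937, edgeR), and 5-FU minus day 7 gave -8.17 ± 1.49 (adjusted p = 0.00887). Antibody variable segments varied more within an arm after 5-FU than other genes (median SD of log2 CPM 1.1 against 0.18). Il2rb was at -0.56 ± 0.11 on day 28 and -0.34 ± 0.14 on day 7, neither called, and differed between 5-FU and day 28 by 1.44 ± 0.18 (adjusted p = 0.0022, edgeR) and between 5-FU and day 7 by 1.21 ± 0.21 (adjusted p = 0.00603). For Trac the differences were 0.96 ± 0.16 (adjusted p = 0.0182, edgeR) and 1.18 ± 0.22 (adjusted p = 0.00924), the former not called without PBS replicate 2 or β-glucan replicate 1 (0.96 and 0.87, adjusted p = 0.0532 and 0.0558). Lipg, the endothelial lipase, was higher at day 28 (1.38 ± 0.19, adjusted p = 0.0392, edgeR) and day 7 (2.42 ± 0.35, adjusted p = 0.00221) and was at -0.26 ± 0.18 after 5-FU.

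For 11 erythroid genes the β-glucan difference was closer to 0 after 5-FU than at day 7. At day 7, 20 of the 23 were called lower (3.88% of all genes), with a median of -1.2, and at day 28 none was called (median -0.14). The difference between 5-FU and day 7 was called for 11 of the 23, each higher after 5-FU (0.945% of all genes). Hba-a2 differed by -0.39 ± 0.10 after 5-FU, -0.20 ± 0.10 at day 28 and -1.56 ± 0.10 at day 7, and the difference between 5-FU and day 7 was 1.14 ± 0.14 (adjusted p = 0.00137, edgeR). Bpgm, the bisphosphoglycerate mutase of red cells, gave 1.06 ± 0.11 (adjusted p = 0.000397, edgeR) for the same difference. The B cell factor Pax5, at -1.50 ± 0.15 on day 7 and 0.22 ± 0.16 after 5-FU, gave 1.69 ± 0.22 (adjusted p = 0.00151, edgeR).

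**Figure D5:**
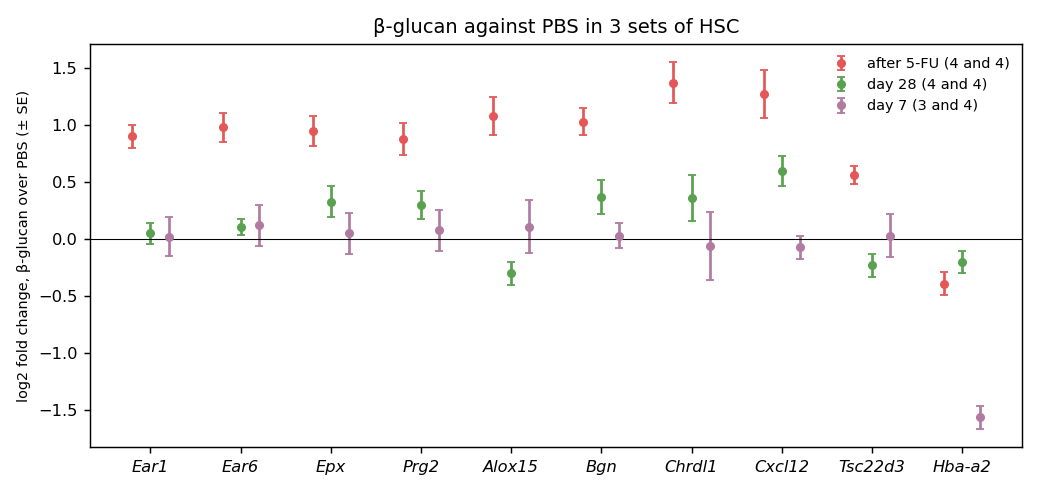
Log2 difference, β-glucan over PBS (± SE), of 10 genes in 3 sets of HSC, each from its own fit; numbers in brackets are β-glucan and PBS libraries for day 7 (3 and 4) and 4 and 4 elsewhere. Ear1 lies at 0.90 after 5-FU, 0.05 at day 28 and 0.02 at day 7, Cxcl12 at 1.27, 0.60 and -0.07, and Hba-a2 at -0.39, -0.20 and -1.56.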

How the data were processed

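The authors deposited counts per gene in 3 tables, each listing 45706 gene identifiers. Per the submitters' processing notes, bcl2fastq 1.8.4 and featureCounts (no version given) were used, with build mm10. The sources used here name no aligner. Per the labels' protocols, RNA of sorted cells was amplified with a SMARTer Ultra kit, which does not mark strand. Reads of overlapping, antisense or near-identical genes therefore cannot be told apart. No exon of the 7 called genes overlaps an exon of another gene model, and genes that lie within their introns were not looked for. The columns print neither the day nor 5-FU. The table of 8 HSC columns was taken as the 5-FU set because the other tables matched the day 7 and day 28 groups, and its P and G columns were read as PBS and β-glucan. GENCODE M21 gave a symbol to 45143 identifiers, and the other 563 held at most 0.0908% of a library's counts.

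The tests were run with edgeR 4.0.16 in R 4.3.3 (filterByExpr with a minimum count of 10, TMM scaling, quasi-likelihood F-test, Benjamini-Hochberg adjustment over all genes tested, threshold 0.05), with the compared groups alone in the fit. The minimum count equals 0.364 CPM at the median library, and 481 genes passed only through the β-glucan arm and 306 only through the PBS arm. Each SE was obtained from the F statistic (size of the log2 fold change over the root of F). Differences between effects were contrasts of 4 groups in 1 fit. A chi-square comparison of 12 replicate pairs found no duplicated library (12 to 45.9 per gene). Alternatives were DESeq2 1.42.0, limma 3.58.1 (voom with quality weights), other scalings and filters, all 8 groups in 1 fit, a replicate block and leaving out each library. The procedure was tested on simulated data.

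The genes, the 33 lists (779 members) and the tests were chosen with earlier results of these data known. Named genes were the called genes with a standard symbol whose mean log2 CPM was 2 or more, up to 4 members of smallest p from each list, chosen genes (Tyms, Upp1, Mki67 and Cdkn1a, the receptors Clec7a, Il1r1 and Csf2rb, and the sort markers Kit, Ly6a, Procr, Slamf1, Cd48, Cd34 and Flt3) and up to 6 called genes of smallest p for each difference of effects. Ighv1-49 and the other members described were added after their values were seen. An exact permutation test of the list shares had been planned and is not reported, since the lists were chosen with results known. The promoters printed come from RefSeq (GRCm38.p6).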

Additional observations from a re-analysis of the deposited data

Results flagged for a closer look

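Tsc22d3 had 1 β-glucan library apart from the others: replicate 2, at 353 CPM, lay above the other 3 (318 to 322 CPM) by more than Dixon's 95% limit for 4 values allows, a limit that chance alone passes in about 1 group of 20. Without β-glucan replicate 2 the log2 difference was 0.52 (adjusted p = 0.152, edgeR). The Dixon rule was applied to both arms of the 7 called genes and of several marker shares, and no other group passed it. Among that many groups, a hit by chance would not be unusual.

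For the genes named here the β-glucan effect after 5-FU differed from that in HSC without 5-FU at day 28, day 7 or both. The test was of the difference itself (edgeR, adjusted p under 0.05). Between 5-FU and day 28 the log2 difference was 0.83 for Ear1, 0.77 for Tsc22d3, 1.36 for Alox15, 0.96 for Trac, 1.44 for Il2rb, -1.66 for Lipg and -5.89 for Ighv1-49. Between 5-FU and day 7 it was 0.96 for Bgn, 1.18 for Trac, 1.21 for Il2rb, 1.31 for Cxcl12, 1.14 for Hba-a2, 1.06 for Bpgm, 1.69 for Pax5, -2.71 for Lipg and -8.17 for Ighv1-49. They are the called ones among the genes for which the report gives this difference, of 18 and 386 called in all.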

How the results depend on the processing

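The 7 called genes (6 higher, 1 lower, 3 over 2-fold) became 110 without a filter (88, 22 and 67), 16 with a CPM minimum of 5 in 4 libraries (15, 1 and 5), 147 with DESeq2's Wald test (106, 41 and 60), 42 with limma voom (39, 3 and 27) and 94 with all 8 groups in 1 fit (74, 20 and 48). With 1 library left out they were 2 to 61 (1 to 59 higher, 1 to 2 lower, 1 to 48 over 2-fold). The replicate numbers showed no sign of pairing the libraries: same-numbered libraries deviated with correlations of -0.076 to -0.004, and none correlated best with its own number. A lack of correlation does not establish that the libraries were unpaired. The replicate block gave 16 calls (13, 3 and 11), without Tsc22d3 (adjusted p = 0.0672, edgeR) and with Prg2, Prg3, Alox15, Kitl, Ibsp, Gas6, Serpina3n and Serping1, and it lost the differences of Trac against day 28 (0.95, adjusted p = 0.0873) and Bgn against day 7 (0.93, adjusted p = 0.0537). All 7 were kept with upper quartile scaling, TMM without erythroid and neutrophil genes, no filter, DESeq2 and voom. DESeq2's size factors lost Tsc22d3, and the CPM minimum and the fit of all 8 groups lost Ighv1-49. The 18 differences against day 28 became 151 with DESeq2 and 7 with the replicate block (6 to 19 with 1 library left out), and the 386 against day 7 became 930 and 130 (159 to 490). The cause was not tested. The sign turned for uncalled genes near 0: Ly6a (0 without a filter, 0.05 with voom, -0.07 to 0.04 with 1 library left out), Mki67 (-0.02 with voom, -0.08 to 0.22), Procr (-0.31 to 0.07), Flt3 (-0.04 to 0.28), Pecam1 (-0.09 to 0.01), Csf2rb (-0.11 to 0.02) and Tyms (-0.07 to 0.01). The median of the glucocorticoid-induced genes (0.10) moved to 0.02 with the CPM minimum. Low genes such as Il5ra rest on few counts. Ighv1-49 had few in the β-glucan arm only (4 to 7, against 66 to 156 in the PBS arm).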

Other observations

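Several genes of secreted and matrix proteins that are in none of the lists came close to the threshold. They were picked after their values were seen, and none passed it in the edgeR fit of the 2 arms. Gas6, a ligand of the TAM receptors, was at 1.77 ± 0.561 CPM (SD, n = 4) in the PBS arm and 5.35 ± 1.13 CPM in the β-glucan arm, a log2 difference of 1.59 ± 0.25 (adjusted p = 0.0581, edgeR). The protease inhibitor Serpina3n differed by 1.42 ± 0.22 (adjusted p = 0.0581, edgeR), the matrix protein Prelp by 1.37 ± 0.25 (adjusted p = 0.083) and the complement inhibitor Serping1 by 1.06 ± 0.19 (adjusted p = 0.0837). Fibulin-5 (Fbln5) differed by 1.30 ± 0.24 (adjusted p = 0.0894, edgeR) and the gap junction protein Gja1 by 0.75 ± 0.14 (adjusted p = 0.0837). In each of these 6 genes every β-glucan library lay above every PBS library, as for 2.41% of all genes tested. All 6 were called with no filter, DESeq2's Wald test, limma voom and edgeR fitted on all 8 groups, and without PBS replicate 3 (adjusted p from 0.00514 to 0.0218 in the last, edgeR). Ear10, of the eosinophil ribonuclease family, was at 11 ± 0.785 and 17.4 ± 2.01 CPM (0.67 ± 0.11, adjusted p = 0.0581, edgeR), was called by the same alternatives and shares sequence with Ear1 and Ear2.

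Antibody variable segments varied more between libraries of an arm than other genes. The median SD of log2 CPM within an arm was 1.1 over 142 tested segments and 0.18 over the other 15563 genes. Of the segments, 30 differed by more than 4-fold between arms, 6 of them without overlap, against 8 of the other genes, 5 of them without overlap. The arms did not overlap for 7.75% of segments and 4.58% of other genes. Igkv1-88 was at 0.223, 0.365, 2.09 and 0.216 CPM in PBS libraries and 13.1, 6.7, 3.89 and 10.8 CPM in β-glucan libraries. Igkv6-23 lay the other way, at 40.04, 69.9, 20.7 and 29.1 CPM against 13.5, 3.43, 1.88 and 17.5 CPM. Ighv1-49 was the only called segment.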
